A study of Mus musculus with 16 samples.

Results

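α-Ketoglutarate (α-KG) given without antibody was compared with vehicle in B16F10 tumors, to ask which genes and cell programs the metabolite changed on its own. B16F10 is a pigmented melanoma cell line of the C57BL/6 mouse. The comparison used 8 of the 16 tumors in the RNA sequencing series, 4 treated with α-KG and 4 treated with vehicle, which were taken by their labels and not by any measured value. The other 8 tumors, 4 given an antibody against the checkpoint receptor PD1 (anti-PD1) and 4 given both agents (α-KG + anti-PD1), entered the estimate of the spread and were used only to see whether a change also separated α-KG from those groups. All mice were female C57BL/6 of 7 to 8 weeks that carried B16F10 cells injected into the right abdomen, and no group carried an engineered allele. Treatment was intraperitoneal, began when tumors had reached about 50 mm3 and ran for 9 to 11 days. The α-KG dose was 100 mg/kg, and the vehicle group received corn oil with an IgG isotype control. Whether the mice given α-KG alone also received the isotype antibody is not stated in the sources used here, so the isotype and the metabolite cannot be told apart in this comparison. The 4 tumors of a group were independent samples of whole tissue, so each library mixes melanoma cells with blood, vessels, immune cells and whatever neighboring tissue was taken.

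α-KG is an intermediate of the citric acid cycle and the cosubstrate of a large family of dioxygenases, among them the TET enzymes that oxidize methylated DNA, the JmjC histone demethylases and the prolyl hydroxylases that mark hypoxia-inducible factors for destruction. Neutrophils are short-lived granulocytes that leave the blood along gradients of chemokines such as CXCL1, CXCL2 and CXCL3, and their cytoplasm is rich in the calcium-binding proteins S100A8 and S100A9. Myeloid cells that sense microbial or damage signals activate the transcription factor NF-κB, which drives IL-1β, TNF and many chemokines together with its own inhibitors. PD-L1, encoded by Cd274, is the ligand of PD1 and can be induced by interferon-γ as well as by inflammatory cytokines, on tumor cells and on myeloid cells.

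Expression was deposited as FPKM (fragments per kilobase of transcript, scaled to the number of mapped fragments) for 18929 genes, of which 5 were at 0 in every tumor. Differences are given as log2FC, the difference between the group means of log2(FPKM + 1), with α-KG minus vehicle positive where α-KG was higher. The added 1 makes log2FC understate the change of genes that lie near or below 1 FPKM. A gene was tested when it reached 0.5 FPKM in at least 4 of the 16 tumors, which left 12850 genes, and it was said to rise or fall when the adjusted p from limma (Benjamini-Hochberg over all genes tested) was below 0.05. A gene that is high in 1 of the groups compared can reach that level only with the help of its tumors, as 187 tested genes did with the α-KG tumors and 122 with the vehicle tumors. Counts and medians over a gene list, promoter counts aside, therefore use only its members among 12574 genes. These genes reached that level both without the α-KG tumors and without the vehicle tumors, and are called counted below. The choice was made after the values were seen, and no p is given for a named gene outside them. FPKM summed to 578171 to 635205 in the vehicle tumors and 581805 to 654772 in the α-KG tumors, and the depth in reads was not given in the sources used here. Pearson correlations of log2(FPKM + 1) were 0.971 to 0.993 among vehicle tumors, 0.980 to 0.993 among α-KG tumors and 0.932 to 0.963 between the groups. Hemoglobin genes took 10.9% to 16.8% of the FPKM sum in vehicle and 4.85% to 15.1% in α-KG tumors. The pigment genes of melanoma were abundant in every library, with the summed level of 16 melanocyte markers at 9226 to 11130.2 FPKM in vehicle and 9882 to 10579 FPKM in α-KG tumors. Some features of the vehicle group touch the results. Vehicle tumor 4 held far more skeletal muscle RNA than any other tumor, and vehicle tumors 1 and 2 held more leukocyte RNA than vehicle tumors 3 and 4. In whole tumors, fewer cells of a type and less RNA per cell cannot be told apart, and this holds for every gene group below.

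α-KG changed 2048 of the 12850 genes tested, 15.9%. Of these, 1080 genes (8.40% of those tested) were higher and 968 (7.53%) were lower than in vehicle, while the median log2FC over all genes tested was -0.04. The rises were large and the falls were small. Among the genes that rose, 537 had a log2FC of at least 1 and 90 a log2FC of at least 3, whereas only 43 of the genes that fell reached -1, and 15 of those 43 belonged to the skeletal muscle list. The 4 α-KG tumors lay wholly above or wholly below the 4 vehicle tumors for 2633 genes, 20.5% of those tested, and for 1757 of the 2048 genes that changed. The list counts below stand beside these shares of 8.40% higher, 7.53% lower and 20.5% without overlap. The gene lists were chosen with earlier results of these data known, so their counts describe those members only. For a single gene an exact permutation test of 4 against 4 tumors has 70 divisions and cannot give a p below 0.0286, so calls rest on the limma fit, which shares the spread of all 16 tumors (12 residual degrees of freedom). The balance of rises and falls depended on how the libraries were scaled. Rises made up 52.7% of the changed genes on the deposited scale, 38.7% after quantile normalization, 43.3% after centring each tumor on its median, 40.0% after setting the FPKM sum without hemoglobin genes equal, and 67.7% after setting the whole FPKM sum equal.

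The direct comparison with α-KG + anti-PD1 tumors depended on the scaling far more. There 4918 genes differed, and those higher in α-KG made up 16.9% of them on the deposited scale, 50.0% after quantile normalization, 64.0% after median centring, 10.1% with equal FPKM sums without hemoglobin genes and 5.11% with equal sums. The median log2FC over all genes tested was -0.16, 0.04, 0.11, -0.24 and -0.36 in the same order. Against anti-PD1, where 406 genes differed, those higher in α-KG made up 88.7%, 82.3%, 84.8%, 65.5% and 97.5%. For a gene list whose count against either antibody-treated group moved by over 1.5 times and by 2 genes or more with the scaling, its lowest and highest count over the 4 other scalings follow the count in parentheses, and no direction is read from such a count.

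**Figure D1:**
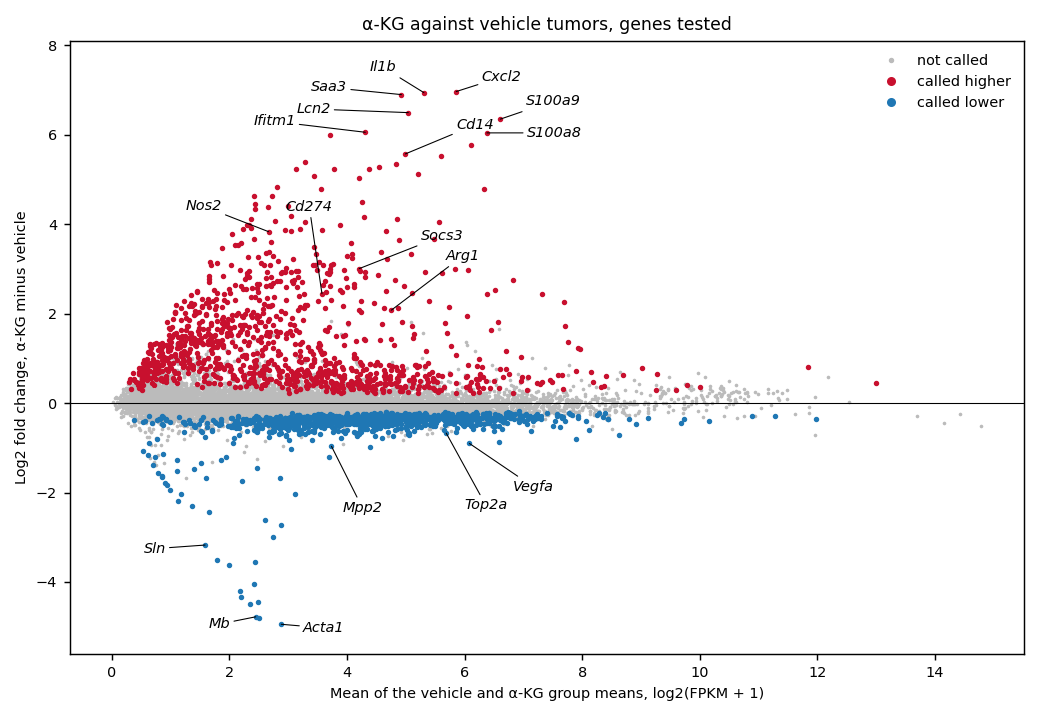
Each point is 1 of the 12850 genes tested, with its mean log2(FPKM + 1) over the α-KG and vehicle tumors on the horizontal axis and log2FC (α-KG minus vehicle) on the vertical axis. The 1080 genes that rose reach log2FC 6.96, while the falls below -3 are skeletal muscle genes and Car3.

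The 12 largest rises were of genes that neutrophils, monocytes and activated macrophages express in inflammation. Cxcl2 (Gene ID 20310), a chemokine that draws neutrophils through the receptor CXCR2, had the largest. Its level was 1.45, 7.7, 4.64 and 5.04 FPKM in the vehicle tumors and 566, 414, 607 and 1232 FPKM in the α-KG tumors (log2FC = 6.96, SE = 0.64, adjusted p = 1.87e-06). The lowest α-KG tumor was therefore far above the highest vehicle tumor, and the anti-PD1 tumors (11.9, 12.8, 7.25 and 14.3 FPKM) and α-KG + anti-PD1 tumors (3.83, 3.42, 3.25 and 49.1 FPKM) all lay far below the α-KG tumors. Il1b (Gene ID 16176), which encodes the pyrogenic cytokine IL-1β, rose from 2.32, 6.19, 1.79 and 1.46 FPKM to 384, 276, 481 and 722 FPKM (log2FC = 6.94, SE = 0.50, adjusted p = 1.91e-07). Saa3 (Gene ID 20210), an acute-phase serum amyloid A gene whose reads can be shared with its paralogs, was at 1.75, 1.53, 1.52 and 2.44 FPKM in vehicle and at 861, 106, 301 and 436 FPKM in α-KG tumors (log2FC = 6.90, SE = 0.54, adjusted p = 3.47e-07). The first α-KG tumor was highest and the second lowest for Saa3, yet no α-KG tumor came near the vehicle range. Lcn2 (Gene ID 16819), the iron-siderophore binding protein of neutrophil granules, was at 1.05, 2.06, 3.31 and 4.39 FPKM in vehicle and 390.2, 136, 406 and 438 FPKM in α-KG tumors (log2FC = 6.49, SE = 0.41, adjusted p = 8.17e-08), where the second tumor stood below the other 3.

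S100a9 (Gene ID 20202) and S100a8 (Gene ID 20201), whose products form the calprotectin heterodimer of the neutrophil cytosol, reached the highest levels of the group. S100a9 was at 4.86, 11.1, 11.2 and 14.7 FPKM in vehicle and 751, 529, 1021 and 1473 FPKM in α-KG tumors (log2FC = 6.35, SE = 0.64, adjusted p = 5.40e-06). S100a8 was at 5.6, 7.69, 11.8 and 14.1 FPKM and 607, 416, 785 and 1044 FPKM (log2FC = 6.04, SE = 0.61, adjusted p = 4.89e-06). Ifitm1 (Gene ID 68713), an interferon-inducible membrane protein, was at 2.32, 1.71, 0.52 and 1.58 FPKM in vehicle and 144, 96.5, 213 and 227 FPKM in α-KG (log2FC = 6.05, SE = 0.32, adjusted p = 2.87e-08), one of the tightest separations among the 12. Acod1 (Gene ID 16365), which makes itaconate from a citric acid cycle intermediate in activated myeloid cells, rose by 5.99. The chemokines Ccl3 (Gene ID 20302) and Ccl4 (Gene ID 20303), close paralogs that attract monocytes and other leukocytes, rose by 5.76 and 5.52, and reads may be shared between them. Cd14 (Gene ID 12475), the lipopolysaccharide coreceptor, and Hdc (Gene ID 15186), which makes histamine from histidine, rose by 5.57 and 5.39. All 12 were also higher in α-KG than in anti-PD1 tumors, as were 360 genes (2.80% of those tested), and higher than in α-KG + anti-PD1 tumors, as were 832 genes (6.47%). The direct log2FC for these 12 genes ran from 3.43 for Cd14 to 6.81 for Lcn2 against anti-PD1, and from 2.54 for Ccl4 to 6.30 for Cxcl2 against α-KG + anti-PD1. The α-KG tumors kept nearly the same order across these genes. Tumor 4 was the highest of the 4 in 11 of the 12 and tumor 2 the lowest in 12 of the 12.

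**Figure D2:**
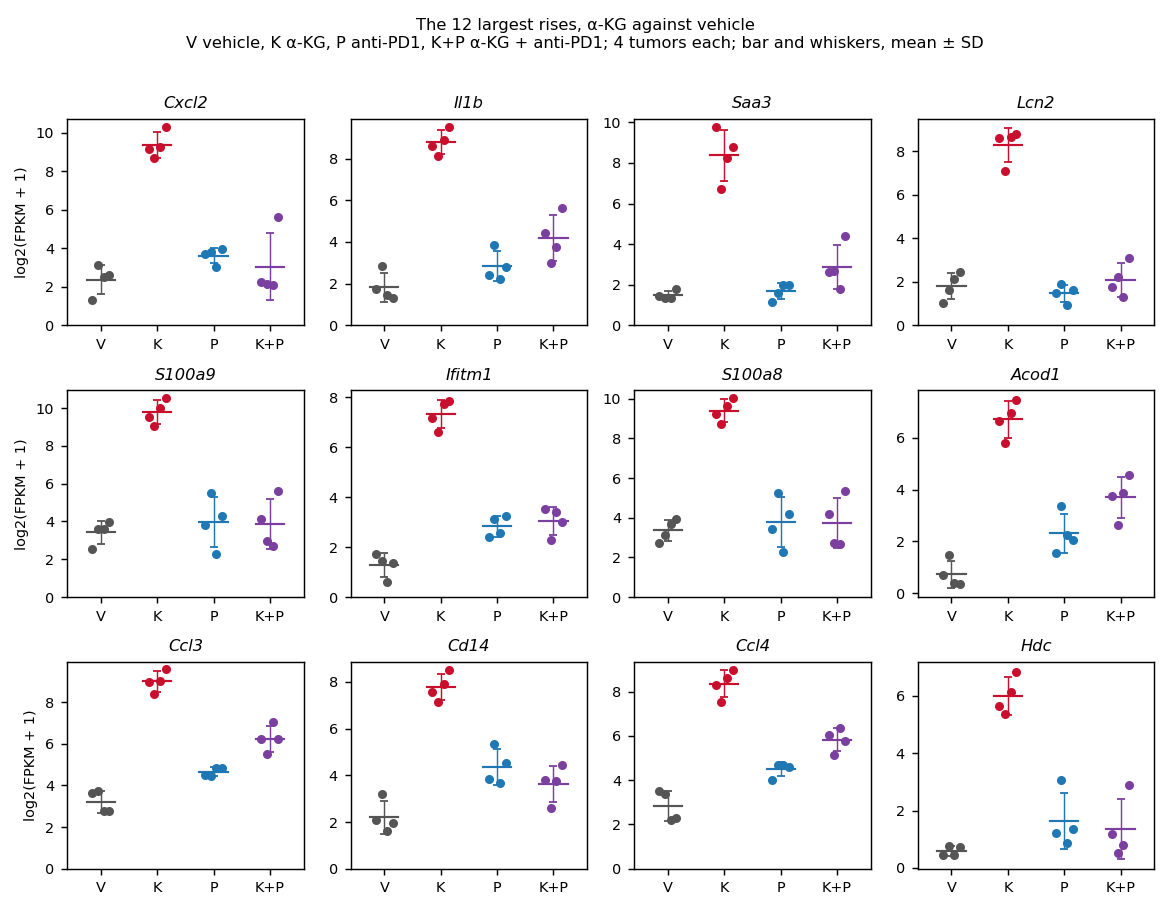
For the 12 largest rises, each point is 1 tumor's log2(FPKM + 1) in the vehicle, α-KG, anti-PD1 and α-KG + anti-PD1 groups, with the mean and SD of the 4 tumors. All 4 α-KG tumors lie above all 12 others for genes such as S100a8 (lowest α-KG value 415.8 FPKM).

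Neutrophil markers rose together. The list held 26 genes, of which 25 were in the table (not BC100530), 19 were tested and 15 counted, while Ly6g, Ngp, Stfa2 and Cxcr1 entered the test only through the α-KG tumors. Of the 15 counted, 15 rose and 0 fell (median log2FC 4.83, beside -0.04 over all genes tested). The groups did not overlap for 15 of the 15, beside 20.5% of all genes tested. The summed level of the list was 34.1 to 54.9 FPKM in vehicle, 1498 to 4072 FPKM in α-KG, 49.6 to 156 FPKM in anti-PD1 and 54.2 to 166 FPKM in α-KG + anti-PD1 tumors. Csf3r, the receptor of the granulocyte growth factor G-CSF, was at 2.69, 2.83, 3.46 and 1.99 FPKM in vehicle and 53.8, 35, 69.1 and 82.8 FPKM in α-KG tumors (log2FC = 3.98, SE = 0.27, adjusted p = 1.22e-07). Cxcr2, the receptor for CXCL1, CXCL2 and CXCL3, was at 7.68, 3.92, 7.61 and 5.78 FPKM and 17, 21.6, 21.2 and 23.9 FPKM (log2FC = 1.62, SE = 0.18, adjusted p = 1.11e-05), so it was measured in every vehicle tumor. Ly6g, the surface protein by which mouse neutrophils are usually sorted, was listed at 0 in all 4 vehicle tumors and at 1.57, 2.11, 9.16 and 4.38 FPKM in the α-KG tumors, and it reached no more than 0.34 FPKM in any tumor that received anti-PD1. Il1r2, the decoy receptor for IL-1, was at 0.7, 1.55, 0.79 and 0.77 FPKM and 31, 22.8, 35.3 and 54.4 FPKM (log2FC = 4.19, SE = 0.32, adjusted p = 3.25e-07), and Mmp9, the gelatinase of neutrophil granules, rose by 3.27 (adjusted p = 1.13e-06). The stefin genes Stfa2 and Stfa2l1 belong to a family of near-identical copies whose reads may be misassigned. The granule genes Mpo, Elane, Ltf and Camp stayed near 0, unlike Lcn2, Mmp9 and Mmp8, the last of which rose by 2.36. Mpo (myeloperoxidase) was listed at 0 in all 4 α-KG tumors, and Elane (neutrophil elastase) reached at most 0.24 FPKM there. Ltf (lactoferrin) reached at most 0.5 FPKM and Camp (cathelicidin) 0.43 FPKM in these tumors. All 15 counted markers were higher in α-KG than in anti-PD1 and than in α-KG + anti-PD1 tumors.

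**Figure D3:**
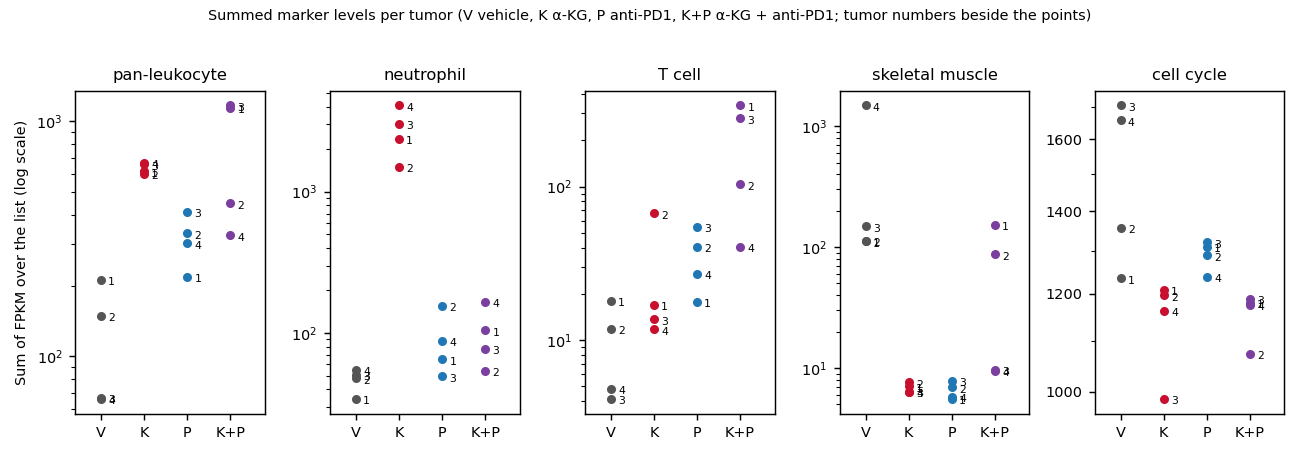
Points are the summed FPKM of 5 marker lists in each of the 16 tumors by group, on logarithmic axes. The neutrophil sum is 1498 to 4072 FPKM in α-KG against 34.1 to 54.9 FPKM in vehicle, the T cell sums overlap, and the muscle sum of vehicle tumor 4 is 1481 FPKM.

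The signals that raise and draw neutrophils rose with them. Of 11 genes listed, 8 were tested and 6 counted, of which 6 rose and 0 fell (median log2FC 3.30). The 6 were Cxcl1, Cxcl2, Cxcl3 and Osm, with Ppbp (1.34) and Pf4 (1.44), which are also in the platelet list below. Csf3 and Il23a entered the test only through the α-KG tumors, and Cxcl5, Csf2 and Il17a did not reach the level for testing. Cxcl3, a neighbor and relative of Cxcl2, was at 2.02, 5.07, 4.53 and 2.98 FPKM in vehicle, 158, 138, 127 and 377 FPKM in α-KG, 16.7, 11.3, 8.02 and 13.3 FPKM in anti-PD1 and 0.89, 1.02, 2.32 and 5.22 FPKM in α-KG + anti-PD1 tumors (log2FC = 5.33, SE = 0.39, adjusted p = 1.91e-07). The α-KG tumors did not overlap with any other group, the direct difference between α-KG and α-KG + anti-PD1 being 5.92 (adjusted p = 3.46e-07). Csf3, which encodes G-CSF, was at 0.06, 0.14, 0 and 0.05 FPKM in vehicle and 9.9, 3.77, 8.66 and 15.2 FPKM in α-KG tumors, without overlap. Osm, an IL-6 family cytokine made by neutrophils and macrophages, was at 0.66, 1.47, 0.5 and 0.46 FPKM and 24.5, 33, 34 and 57.6 FPKM (log2FC = 4.40, SE = 0.27, adjusted p = 8.00e-08). The groups did not overlap for 6 of the 6 counted, beside 20.5% of all genes tested. Against anti-PD1, 4 of the 6 counted were higher in α-KG and 0 lower, and against α-KG + anti-PD1 the counts were 6 and 0.

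The sequence before the start of Cxcl2, Cxcl3 and S100a9 is shown as an example, chosen after the search, of strongly raised genes whose promoters hold the letters of a short element of the NF-κB kind. Promoter sequence came from RefSeq (build GRCm38.p6, matching mm10), and each line gives the 200 bases from 220 to 21 bases before the annotated start, read 5′ to 3′ on the strand of the gene. The letters GGGNNNTTC, called κB-like here, were searched on both strands in the 300 bases around each start, and capitals mark where they match, overlapping matches run together. Cxcl2 lies at chr5:90903679-90903878 (plus strand), Cxcl3 at chr5:90785881-90786080 (plus strand) and S100a9 at chr3:90695742-90695941 (minus strand).
Cxcl2: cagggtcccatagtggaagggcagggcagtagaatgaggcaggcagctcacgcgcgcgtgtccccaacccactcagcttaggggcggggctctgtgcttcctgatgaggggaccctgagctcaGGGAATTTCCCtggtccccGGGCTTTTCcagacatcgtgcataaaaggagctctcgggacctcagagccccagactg
Cxcl3: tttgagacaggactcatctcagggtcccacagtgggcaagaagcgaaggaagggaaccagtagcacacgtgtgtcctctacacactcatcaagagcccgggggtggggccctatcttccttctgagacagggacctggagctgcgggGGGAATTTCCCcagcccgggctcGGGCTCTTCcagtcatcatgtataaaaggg
S100a9: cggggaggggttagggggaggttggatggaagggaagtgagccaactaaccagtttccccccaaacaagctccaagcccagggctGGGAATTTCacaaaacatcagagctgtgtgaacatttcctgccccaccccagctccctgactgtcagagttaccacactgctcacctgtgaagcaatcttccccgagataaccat
Cxcl2 and Cxcl3 share a stretch of the same letters, GGGAATTTCCC, which matches on both strands, with another match downstream of it in each. Of the 12850 genes tested, 10335 had a promoter in the table and 1599 of these (15.5%) held the κB-like letters, as did 3 of 5 neutrophil signal genes, 5 of 13 IL-1 genes, 7 of 14 NF-κB target genes and 2 of 10 of the 12 largest rises. These list shares take all members tested that had a promoter, not only those counted. For neutrophil signals they could include Csf3 and Il23a. A match is a description of letters, not a site that was shown to be used, and no match says only that these letters are not in this window.

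Genes of the IL-1 system rose at the level of ligands, inhibitor and decoy receptor, while the shared machinery changed less. Of 19 genes, 18 were in the table and 14 tested, of which 10 rose and 0 fell (median log2FC 1.25, 10 of the 14 without overlap). Il1a, the other IL-1 agonist, was at 0.48, 0.45, 0.17 and 0.24 FPKM in vehicle and 30.3, 14.6, 38.8 and 60.6 FPKM in α-KG tumors (log2FC = 4.64, SE = 0.40, adjusted p = 1.05e-06). Il1rn, which encodes the receptor antagonist, was at 7.42, 11.7, 2.75 and 2.89 FPKM and 222, 119, 253 and 337 FPKM (log2FC = 5.12, SE = 0.43, adjusted p = 7.19e-07). With Il1b and Il1r2, both agonists and both soluble or decoy antagonists were thus raised in every α-KG tumor. The sensor Nlrp3, Casp4 and Gsdmd, which encodes the pore-forming gasdermin D, also rose, whereas the adaptor Pycard, Casp1 and the DNA sensor Aim2 did not pass the test. The sum of the list was 24.6 to 43.6 FPKM in vehicle and 495 to 1258 FPKM in α-KG tumors. In the direct comparisons 7 of the 14 were higher in α-KG than in anti-PD1 (0 lower), and 6 were higher and 3 (2 to 5) lower than in α-KG + anti-PD1.

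NF-κB target genes rose in 18 of 18 tested (of 20 listed and 19 in the table), with a median log2FC of 2.30. The groups did not overlap for 18 of the 18. Tnf was at 0.77, 0.5, 0.12 and 0.21 FPKM in vehicle and 35.3, 10.9, 44.1 and 33.8 FPKM in α-KG tumors (log2FC = 4.38, SE = 0.44, adjusted p = 4.45e-06). Ptgs2, the inducible cyclooxygenase of prostaglandin synthesis, was at 0.47, 0.83, 0.2 and 0.28 FPKM and 45, 33.5, 58.5 and 88 FPKM (log2FC = 5.24, SE = 0.39, adjusted p = 2.09e-07). Feedback inhibitors rose as well. Nfkbia, which encodes the inhibitor IκBα, was at 12, 12, 9.96 and 9.13 FPKM in vehicle and 187, 114, 213 and 294 FPKM in α-KG (log2FC = 4.04, SE = 0.28, adjusted p = 1.28e-07), and Tnfaip3 and Zc3h12a were also among the rises. Of the 18, 16 were higher in α-KG than in anti-PD1 tumors and 9 were higher than in α-KG + anti-PD1 tumors (7 to 13), with 0 lower in either. The NF-κB subunit genes Nfkb1, Nfkb2, Rel and Relb all passed the test with smaller changes.

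Pattern recognition genes followed in part. Of 17 Toll-like receptor pathway genes, 16 were tested and 10 rose with 0 lower (median log2FC 0.93, 10 of the 16 without overlap). Tlr2, the receptor for bacterial lipopeptides, was at 1.7, 1.4, 0.47 and 0.58 FPKM in vehicle and 16.5, 10.2, 19.2 and 21.1 FPKM in α-KG (log2FC = 3.13, SE = 0.31, adjusted p = 4.45e-06). Its partner Tlr6 rose by 2.18 and Irak3, a brake on the pathway, by 2.24, both without overlap. Tlr3 and Ticam1, the receptor and adaptor for double-stranded RNA, did not pass the test. Their log2FC lay close to 0, at -0.01 for Tlr3, and the lowest of the list was -0.05. Among 24 immediate early genes, 23 were tested, 9 rose and 0 fell (median log2FC 0.45, 12 of the 23 without overlap). Dusp1, a phosphatase that switches off MAP kinases, was at 8.84, 11.7, 9.88 and 9.07 FPKM in vehicle and 97.3, 77, 111 and 159 FPKM in α-KG (log2FC = 3.32, SE = 0.26, adjusted p = 3.46e-07). Zfp36, whose product speeds the decay of cytokine messages, rose by 2.90 and the antiproliferative gene Btg2 by 2.69. Fos, Jun, Ier2 and Myc did not pass the test. Against anti-PD1, 4 of the 16 Toll-like receptor genes and 7 of the 23 immediate early genes were higher in α-KG with 0 lower. Against α-KG + anti-PD1 the counts were 5 higher and 2 (2 to 5) lower, and 7 higher and 2 (1 to 6) lower.

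Genes shared by all leukocytes rose in 10 of 10, with a median log2FC of 2.89 and no overlap between α-KG and vehicle in any. Their summed level was 65.8 to 212 FPKM in vehicle, 599 to 665 FPKM in α-KG, 218 to 413 FPKM in anti-PD1 and 328 to 1169 FPKM in α-KG + anti-PD1 tumors. Ptprc, which encodes the common leukocyte antigen CD45, was at 4.31, 2.21, 0.65 and 0.88 FPKM in vehicle and 16.5, 17.6, 20.1 and 23.5 FPKM in α-KG (log2FC = 2.91, SE = 0.43, adjusted p = 0.000227). In vehicle, tumors 1 and 2 were above tumors 3 and 4 for this gene, while the 4 α-KG tumors lay close together. Cd53 rose by 3.29, Cd52 by 3.00, Rac2 by 2.98 and Lsp1 by 2.94. Of the 10, Cd53 and Lsp1 were also higher in α-KG than in anti-PD1 tumors (2 genes, 0 to 4), and 0 of the 10 passed the test against α-KG + anti-PD1 (up to 1 higher or 1 lower with another scaling). The part of this wider rise of leukocyte RNA in each gene group described here was not tested.

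Monocyte and macrophage genes rose to a lesser degree. Of 14 monocyte genes tested of 14 listed, 10 rose and 0 fell (median log2FC 1.81, 10 without overlap). Plac8 rose by 3.09, the coagulation factor gene F10 by 2.93 and Ly6c2 by 2.92, the last of which may share reads with Ly6c1. Of 20 macrophage genes tested of 20 listed, 14 rose and 0 fell (median log2FC 1.66, 14 without overlap), and the sum went from 729 to 1801 FPKM in vehicle to 1931 to 2452 FPKM in α-KG. Cd14 led this list, followed by Itgam, which encodes the integrin CD11b (2.97), Spp1, which encodes osteopontin (2.53), and the lysozyme gene Lyz2 (2.44). Csf1r (2.27), Adgre1 (1.87), Cd68 (1.80), Ms4a7 (1.51) and Trem2 (1.25) also rose. C1qb (1.37), C1qa (1.30), Aif1 (1.19), C1qc (1.17) and Mertk (0.54) did not pass the test, with adjusted p from limma of 0.051 to 0.086. Apoe was unchanged (0.01). At an unadjusted p below 0.05, 19 of the 20 were higher. The count of 14 was 13 without α-KG tumor 1 and 19 without vehicle tumor 1. Of the 20, 1 was higher than in anti-PD1 tumors with 0 lower, and 2 were higher and 5 (2 to 8) lower than in α-KG + anti-PD1. For the 14 monocyte genes these counts were 4 and 0, and 3 and 2 (0 to 2).

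The receptors for antibody constant regions rose in 5 of 5 (median log2FC 2.13, no overlap in 5), with Fcgr3 at 2.75 and the shared signaling chain Fcer1g at 2.75, and 0 of the 5 passed the test against either antibody-treated group. In the list of alternatively activated macrophages, 7 of 10 genes were tested, 5 rose and 0 fell (median log2FC 1.45, 5 of the 7 without overlap). Against each antibody-treated group 2 were higher and 0 lower. Chil3, a chitinase-like protein of macrophages and neutrophils, was at 4.95, 3.66, 3.98 and 4.86 FPKM in vehicle and 26.5, 27.3, 28.7 and 32.2 FPKM in α-KG (log2FC = 2.47, SE = 0.34, adjusted p = 0.000111). Arg1, the cytosolic arginase, was at 20.6, 20.5, 7.78 and 6.31 FPKM and 76.8, 55.6, 35 and 58.5 FPKM (log2FC = 2.08, SE = 0.36, adjusted p = 0.00107). Il10, an anti-inflammatory cytokine, was listed at 0 in 3 vehicle tumors and at 0.24 FPKM in the other one, and at 4.51, 1.07, 3.64 and 5.07 FPKM in α-KG. Arginine and tryptophan genes were counted in 7 of 13, of which 5 rose and 1 fell (median log2FC 1.16, 6 of the 7 without overlap). Nos2, the inducible nitric oxide synthase, was at 1.14, 1.15, 0.31 and 0.33 FPKM in vehicle and 37, 9.4, 23.8 and 32.5 FPKM in α-KG (log2FC = 3.83, SE = 0.50, adjusted p = 7.26e-05). Arg2, the mitochondrial arginase, was at 0.28, 0.58, 0.2 and 0.29 FPKM and 13.8, 10.1, 14.1 and 25.1 FPKM (log2FC = 3.58, SE = 0.22, adjusted p = 7.95e-08). Nos2, Arg2 and Arg1, whose enzymes consume arginine, were therefore all higher in every α-KG tumor than in any vehicle tumor. Ido1 was too low to be tested. The 1 fall was lost without α-KG tumor 3 or 4 or vehicle tumor 1, 2 or 4. Of these 7 genes, 3 were higher than in anti-PD1 with 0 lower, and 2 higher and 1 lower than in α-KG + anti-PD1.

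**Figure D4:**
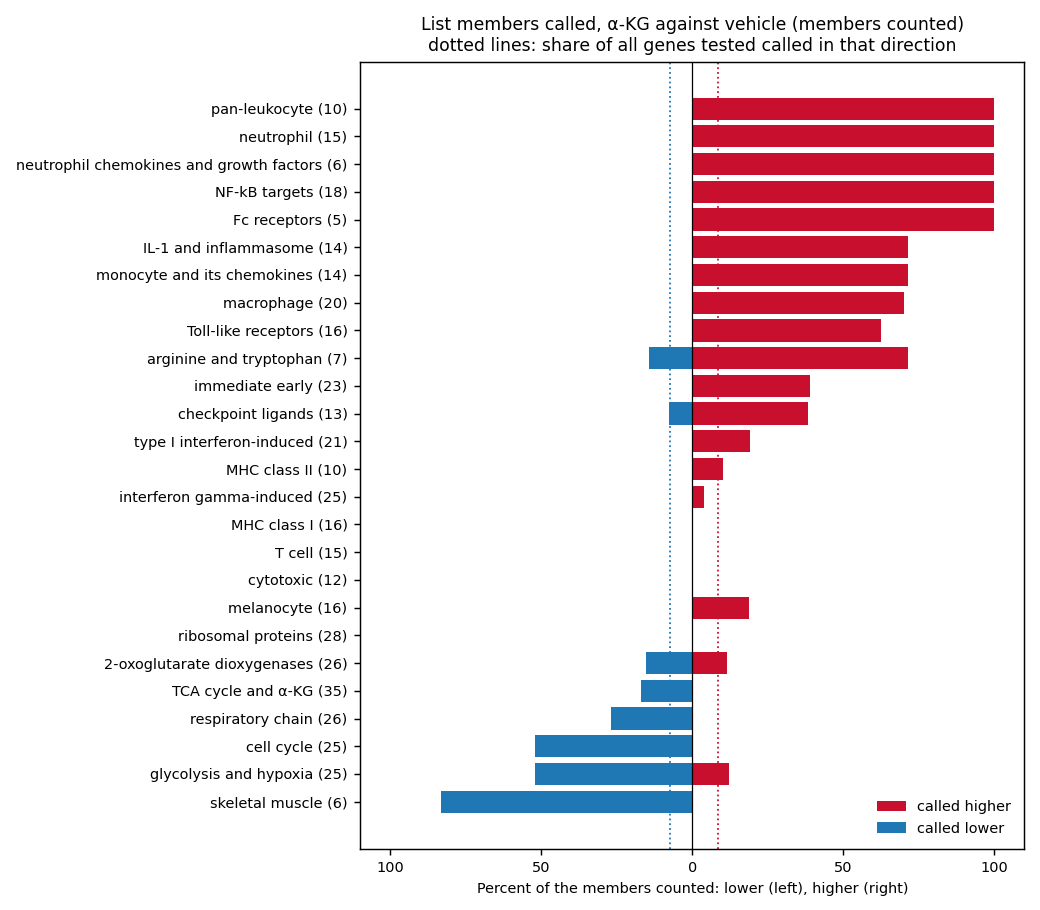
For each gene list, bars give the percent of its counted members that were higher (to the right) or lower (to the left) in α-KG than in vehicle, and dotted lines mark the same over all genes tested, 8.40% higher and 7.53% lower. The lists were chosen with earlier results of these data known. Neutrophil, neutrophil signal, leukocyte, NF-κB and Fc receptor genes are at 100% higher, and T cell, cytotoxic, MHC class I and ribosomal protein genes are at 0 in both directions.

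T cell genes did not follow the myeloid genes. Of 15 T cell genes tested of 15 listed, 0 rose and 0 fell by limma, and 0 had an unadjusted p below 0.05 (median log2FC 0.51). The groups overlapped for every one of them. Cd3e, a chain of the T cell receptor complex, was at 0.98, 0.5, 0.09 and 0.18 FPKM in vehicle and 0.73, 3.32, 0.74 and 0.96 FPKM in α-KG (log2FC = 0.68, 95% interval -0.40 to 1.77, adjusted p = 0.398). Cd8a was at 1.13, 0.68, 0.07 and 0.16 FPKM and 0.59, 3.63, 0.58 and 0.56 FPKM (log2FC = 0.51, 95% interval -0.70 to 1.71, adjusted p = 0.598). The second α-KG tumor alone held the high values, and for both genes the other 3 lay among the vehicle tumors. Cd3g was at 1.73, 1.07, 0.14 and 0.07 FPKM and 2.34, 9.32, 1.71 and 1.23 FPKM. Summed T cell markers were 4.14 to 18.1 FPKM in vehicle and 11.8 to 67.2 FPKM in α-KG tumors, and this tumor was at the same time the lowest of its group for the 12 largest rises. All 15 were lower in α-KG than in α-KG + anti-PD1 tumors, a direction shared by 4086 genes (31.8% of those tested), and 0 of them passed the test between α-KG and anti-PD1, where 46 genes (0.358%) were lower.

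Cytotoxic genes were 0 higher and 0 lower by limma of 12 tested, with 0 at an unadjusted p below 0.05 (median log2FC 0.41, 2 without overlap). Gzmb, which encodes the effector protease granzyme B and may share reads with its paralogs, was at 4.51, 3.19, 0.09 and 0.31 FPKM in vehicle and 3.98, 5.35, 1.99 and 1.74 FPKM in α-KG (log2FC = 0.74, 95% interval -0.81 to 2.30, adjusted p = 0.541). Nkg7 was at 3.82, 2.49, 0.09 and 0 FPKM and 2.88, 14.9, 2.18 and 1.37 FPKM, again with the second α-KG tumor highest. NK cell genes were 0 and 0 of 5 tested (8 listed, median log2FC 0.21), B cell genes 0 and 0 of 3 counted (9 listed, 0.63), and regulatory T cell and exhaustion genes 0 and 0 of 12 tested (0.40). At an unadjusted p below 0.05 these counts were 0 for NK and B cell genes and 1 higher for the regulatory list, in which 1 passed the test without vehicle tumor 1. Against α-KG + anti-PD1, 12 of the 12 cytotoxic, 5 of the 5 NK, 1 of the 3 B cell and 11 of the 12 regulatory genes were lower in α-KG. T cell chemokine genes rose in 2 of 8 tested (12 listed, 10 in the table, median log2FC 0.33), Cxcl16 among them, while Cxcl9, Cxcl10 and Ccl5 did not pass the test. The count of 2 was 1 without α-KG tumor 1, 2 or 3 and 0 without vehicle tumor 3 or 4. Against α-KG + anti-PD1, 6 of these 8 were lower. Dendritic cell genes rose in 5 of 12 tested (13 listed, median log2FC 0.58, 6 without overlap), namely Itgax, Ccr7, Fscn1, Cd83 and Ccl22, while Flt3, Zbtb46, Xcr1 and Batf3, which define the lineage, did not pass the test. The count of 5 was 3 without vehicle tumor 3 or 4. For dendritic genes 1 was higher and 3 (3 to 5) lower than with both agents. Mast cell, basophil and eosinophil genes were mostly too low (1 of 12 counted, 0 called by limma and 0 at an unadjusted p below 0.05).

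Cd274 (Gene ID 60533), the PD-L1 gene, was 7.63, 4.19, 3.14 and 2.66 FPKM in vehicle, 26.8, 22.2, 25.2 and 34.4 FPKM in α-KG, 6.49, 13.9, 12.4 and 7.85 FPKM in anti-PD1 and 37.7, 19.9, 33.5 and 15.1 FPKM in α-KG + anti-PD1 tumors. Every α-KG tumor was above every vehicle and every anti-PD1 tumor, and the α-KG + anti-PD1 tumors spanned the α-KG values. The rise over vehicle (log2FC = 2.45, SE = 0.31, adjusted p = 4.82e-05) and the direct difference from anti-PD1 (log2FC = 1.37, adjusted p = 0.0188) passed the test, and the difference from α-KG + anti-PD1 did not (log2FC = 0.10, adjusted p = 0.814). Ifng was at 0.79, 0.26, 0 and 0.11 FPKM in vehicle and 0.27, 0.77, 0.18 and 0.06 FPKM in α-KG tumors (log2FC = 0.04, 95% interval -0.94 to 1.03, adjusted p = 0.967). It overlapped between groups, and it was lower in α-KG than in α-KG + anti-PD1 tumors (log2FC = -2.44). Stat3, which carries IL-6 family signals, was at 35.1, 41, 42.9 and 40.4 FPKM and 53.1, 41.7, 41.5 and 56.8 FPKM (log2FC = 0.26, 95% interval -0.03 to 0.56, adjusted p = 0.221).

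Interferon-γ target genes rose in 1 of 25 tested (26 listed, median log2FC 0.23, 2 without overlap), and that one was Nos2. Their sum was 120.0 to 412 FPKM in vehicle and 198 to 343 FPKM in α-KG tumors. The median of this list changed sign with single tumors, at -0.08 without vehicle tumor 3, -0.04 without vehicle tumor 4 and 0.68 without vehicle tumor 1. The list includes Gbp and Tgtp families, whose copies may share reads. Irf8 was at 7.22, 3.86, 1.19 and 1 FPKM in vehicle and 7.83, 12.6, 5.2 and 5.42 FPKM in α-KG tumors and did not pass the test (log2FC = 1.19, adjusted p = 0.137). MHC class I genes were 0 and 0 of 16 by limma (median log2FC 0.43, 0 at an unadjusted p below 0.05, median 0.05 without vehicle tumor 4, 0.15 without vehicle tumor 3, 0.21 without α-KG tumor 2 and 1.01 without vehicle tumor 1), MHC class II genes 1 and 0 of 10 (1.29, the cathepsin gene Ctss, against 5 without vehicle tumor 1 and 0 without α-KG tumor 1 or 2 or vehicle tumor 3 or 4), and interferon regulatory factors 1 and 0 of 8 (0.61, Irf5). Without vehicle tumor 1, 1 class I gene, 2 interferon-γ targets and 2 interferon regulatory factors rose. Genes on the interferon-γ axis rose in 4 of 10 tested (12 listed, median log2FC 0.43, 4 without overlap). Ebi3, a subunit of IL-27 and IL-35, rose by 2.45 and Il15, a growth factor of NK and CD8+ T cells, by 1.52. Type I interferon-stimulated genes rose in 4 of 21 tested (23 listed, median log2FC 0.47, 5 without overlap), among them Oas3 (1.34) and Oasl2 (1.5), sensors of the antiviral response, but 2 of 21 without α-KG tumor 2 or 3 or vehicle tumor 3 or 4. Against α-KG + anti-PD1, 23 of the 25 interferon-γ targets, 15 of the 16 class I, 8 of the 10 class II, 6 of the 8 interferon regulatory factors (2 to 6) and 16 of the 21 type I genes were lower in α-KG, and 0 were higher. On the interferon-γ axis 1 was higher and 6 (3 to 6) lower.

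**Figure D5:**
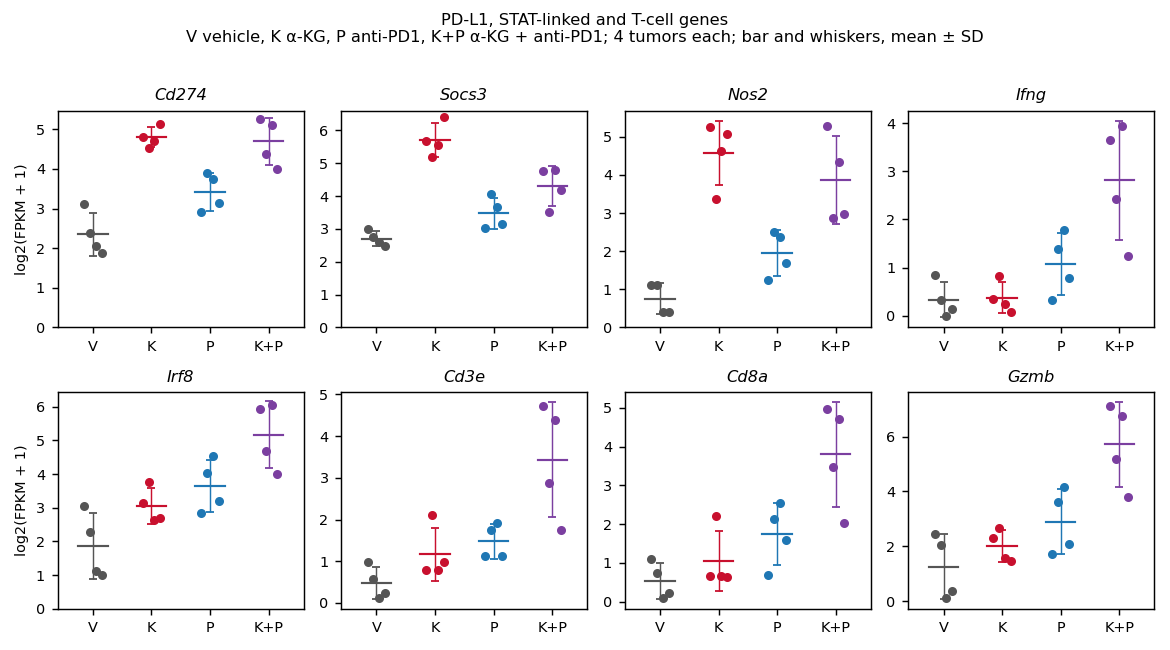
Each point is 1 tumor's log2(FPKM + 1) for 8 genes in the 4 groups, with the mean and SD of 4 tumors. Cd274, Socs3 and Nos2 of the α-KG tumors lie above all vehicle tumors (Cd274 22.2 to 34.4 FPKM against 2.66 to 7.63 FPKM), whereas Ifng, Irf8, Cd3e, Cd8a and Gzmb of the α-KG tumors overlap with vehicle.

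Other checkpoint ligands moved with Cd274 in part. Of 15 listed, 13 were tested, 5 rose and 1 fell (median log2FC 0.45, 8 of the 13 without overlap). Cd80, a ligand of CD28 and CTLA4, was at 0.32, 0.58, 0.17 and 0.33 FPKM in vehicle and 3.42, 4.17, 3.58 and 7.14 FPKM in α-KG (log2FC = 2.01, SE = 0.20, adjusted p = 4.91e-06). Vsir, which encodes VISTA, rose by 1.98 and Cd86 by 1.09, while Nectin2, a ligand of TIGIT and CD226, fell (log2FC = -0.48, adjusted p = 0.0289), a call lost without α-KG tumor 2 or 3 or vehicle tumor 1 or 2. The count of 5 was 3 without α-KG tumor 1 or 2 or vehicle tumor 3 or 4. Against anti-PD1, 2 of the 13 were higher in α-KG, and against α-KG + anti-PD1 1 was higher and 2 (0 to 6) were lower. JAK and STAT genes rose in 2 of 11 (median log2FC 0.26, 6 without overlap), Jak2 by 0.74 and Stat5a by 0.43, but in 0 with equal FPKM sums or without vehicle tumor 3 or 4, in 1 without α-KG tumor 4 and in 4 when the 8 tumors were fitted alone. Suppressors of cytokine signaling rose in 3 of 12 (median log2FC 0.18, 5 without overlap). Socs3, the inhibitor induced by IL-6 family cytokines and G-CSF, was at 6.93, 5.72, 5.04 and 4.63 FPKM in vehicle and 50.6, 35.5, 46.4 and 83.5 FPKM in α-KG (log2FC = 3.01, SE = 0.30, adjusted p = 4.07e-06), and it was also above both antibody-treated groups (log2FC = 2.23 against anti-PD1 and 1.40 against α-KG + anti-PD1). Cish rose by 1.41 and Socs7 by 0.69. Against α-KG + anti-PD1, 6 of the 11 JAK and STAT genes (3 to 9) were lower in α-KG with 0 higher, and 3 of the 12 suppressors (1 to 5) were lower with 1 higher.

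The windows before Cd274 and Socs3 are shown because these genes rose while most interferon targets did not. They were searched for the κB-like letters, for TTCNNNGAA (STAT-like) and for GAAANNGAA (interferon-response-like), on both strands. Cd274 lies at chr19:29367218-29367417 (plus strand) and Socs3 at chr11:117969387-117969586 (minus strand), in the same RefSeq build and with the same distance from the start, and capitals mark the matches.
Cd274: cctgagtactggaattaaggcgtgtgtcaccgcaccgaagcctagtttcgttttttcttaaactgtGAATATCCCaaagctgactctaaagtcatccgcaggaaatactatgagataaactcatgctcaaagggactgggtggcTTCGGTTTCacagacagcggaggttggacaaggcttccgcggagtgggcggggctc
Socs3: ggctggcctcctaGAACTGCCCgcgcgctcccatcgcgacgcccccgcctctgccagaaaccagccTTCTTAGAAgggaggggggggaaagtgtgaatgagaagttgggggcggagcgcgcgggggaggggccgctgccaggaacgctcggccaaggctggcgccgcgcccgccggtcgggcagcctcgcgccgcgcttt
In Cd274 the capitals are a κB-like match on the opposite strand and an interferon-response-like match nearer the start, and in Socs3 they are a κB-like match, also on the opposite strand, and a STAT-like match. Over all 10335 promoters the STAT-like letters were found in 748 (7.24%) and the interferon-response-like letters in 758 (7.33%). Among 9 checkpoint ligand promoters 1 held the κB-like and 2 the interferon-response-like letters, and among 18 interferon-γ target promoters the counts were 5 κB-like, 9 STAT-like and 12 interferon-response-like.

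The genes of enzymes that use α-KG were counted in separate groups. The share that changed was 12.5% of TET, DNMT and partner genes, 10% of histone demethylases and 26.9% of other dioxygenases. Over all genes tested 15.9% changed and 20.5% did not overlap. Of 8 TET, DNMT and partner genes, 0 rose and 1 fell (median log2FC -0.04, 1 without overlap). Tet2 was at 6.06, 3.04, 2.15 and 2 FPKM in vehicle and 3.29, 3.09, 2.1 and 4 FPKM in α-KG (log2FC = 0.00, 95% interval -0.63 to 0.64, adjusted p = 0.996), and Tet3 at 8.4, 5.63, 5.22 and 4.89 FPKM and 7.15, 7.34, 6.04 and 8.23 FPKM (log2FC = 0.24, 95% interval -0.10 to 0.58, adjusted p = 0.342). Both overlapped between the groups, with the first vehicle tumor highest. Tet1 fell from 0.96, 1.35, 1.25 and 1.13 FPKM to 0.66, 0.72, 0.66 and 0.66 FPKM (log2FC = -0.37, adjusted p = 0.0249), a small change at a low level that was lost without α-KG tumor 1 or 3 or vehicle tumor 2, 3 or 4. Without vehicle tumor 1, 1 of the 8 rose and 2 fell. Histone demethylase genes were 1 higher and 1 lower of 20 tested (22 listed, median log2FC 0.01, 3 without overlap). Kdm6b, the H3K27 demethylase that inflammatory stimuli induce, was at 8.35, 8.99, 7.6 and 7.32 FPKM in vehicle and 14.8, 10.9, 11.5 and 21 FPKM in α-KG (log2FC = 0.74, SE = 0.17, adjusted p = 0.00706), and Kdm4b fell (log2FC = -0.33, adjusted p = 0.0314), a call lost without α-KG tumor 2 or 3 or vehicle tumor 1 or 2. Against α-KG + anti-PD1, 5 of the 8 (1 to 6) and 11 of the 20 (2 to 17) were lower in α-KG.

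Other dioxygenases were 3 higher and 4 lower of 26 tested (29 listed, 28 in the table, median log2FC -0.09, 9 without overlap). Egln3, a prolyl hydroxylase of hypoxia-inducible factors, was at 3.62, 3.18, 3.65 and 4.08 FPKM in vehicle and 16, 8.42, 12.5 and 15 FPKM in α-KG (log2FC = 1.56, SE = 0.19, adjusted p = 3.16e-05), and it was also higher than in both antibody-treated groups. Hif1an, the asparaginyl hydroxylase of the same factors, was at 7.95, 7.21, 5.42 and 6.14 FPKM and 10.2, 11.9, 12.4 and 10.7 FPKM (log2FC = 0.69, SE = 0.12, adjusted p = 0.000738). Egln2 rose by 0.23, a call lost in 9 of the 18 alternatives, among them median centring and equal FPKM sums. The collagen lysyl hydroxylase gene Plod2 (-0.46), Jmjd6 (-0.45), Asph (-0.39) and the DNA repair gene Alkbh3 (-0.35) fell, but none of these 4 falls was called once the FPKM sums were set equal. Against α-KG + anti-PD1, 1 (1 to 7) was higher and 6 (2 to 13) were lower. Genes of the citric acid cycle and of glutamate handling, which make and use α-KG, were 0 higher and 6 lower of 35 counted (36 listed, median log2FC -0.20, 9 without overlap). Sucla2, a subunit of succinyl-CoA synthetase, was at 22.3, 26.1, 28.6 and 29.8 FPKM and 21.8, 20.6, 19.4 and 19.7 FPKM (log2FC = -0.37, SE = 0.08, adjusted p = 0.00664). The count of 6 lower was 2 with equal FPKM sums, 2 without vehicle tumor 3 or 4, 3 without α-KG tumor 2, 3 or 4, and 14 without vehicle tumor 1. The transaminase gene Got2 (log2FC = -0.32) overlapped between the groups and was lost in most alternatives.

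Skeletal muscle genes made up the largest falls. Of 22 listed, 18 were tested and 6 counted, of which 0 rose and 5 fell (median log2FC -2.67), while 11 entered the test only through the vehicle tumors. Acta1, the skeletal muscle actin, was at 19.1, 18.1, 24.9 and 281 FPKM in vehicle and 0.22, 0.19, 0.3 and 0.65 FPKM in α-KG (log2FC = -4.95). Tnnt3, a fast troponin T, was at 14.7, 13.8, 20.3 and 164 FPKM and 0, 0.09, 0 and 0.19 FPKM (log2FC = -4.82), and Mb, which encodes myoglobin, at 12.9, 12.6, 16.4 and 202 FPKM and 0.09, 0, 0 and 0.08 FPKM (log2FC = -4.78). The fourth vehicle tumor stood far above the other 3. These were themselves well above all α-KG tumors, and a lack of overlap was required of the largest falls. Over 16 muscle genes at 10 FPKM or more in vehicle tumor 4, vehicle tumors 1, 2 and 3 had a median of 8.82%, 8.23% and 11.5% of its level. The sum of the list was 111.7, 112.3, 148.5 and 1481 FPKM in vehicle, 6.34 to 7.63 FPKM in α-KG, 5.54 to 7.88 FPKM in anti-PD1, and 152.2, 87.4, 9.68 and 9.45 FPKM in α-KG + anti-PD1 tumors. All 4 vehicle tumors and 2 of the α-KG + anti-PD1 tumors thus held muscle RNA. The remaining 9 of the 12 largest falls were Car3, a carbonic anhydrase of muscle and fat (-4.48), Myl1 (-4.45), Pvalb (-4.33), Tnnc2 (-4.19), Tpm2 (-4.04), Atp2a1 (-3.62), Tnni2 (-3.56), Tcap (-3.50) and Sln (-3.17), and nearly all are muscle genes. Of the 12, only Tpm2, Atp2a1 and Tnni2 were among the genes counted. How much muscle next to the tumor was taken with each sample was not recorded in the sources used here, and its part in these falls was not tested. Leaving the muscle list out of the fit gave 2025 changed genes, 1079 higher and 946 lower.

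Because muscle filled the largest falls, the 12 falls outside it with the smallest p are given as well, a choice made after the values were seen. They were drawn only from falls that did not overlap between the groups and averaged at least 1 FPKM in vehicle. Their size was modest, with log2FC between -0.97 for Mpp2 and -0.40 for Chchd10. Mpp2, a membrane scaffold of the guanylate kinase family, was at 17.1, 16.1, 18.4 and 19.1 FPKM in vehicle and 8.73, 8.03, 7.8 and 9.7 FPKM in α-KG (log2FC = -0.97, SE = 0.11, adjusted p = 1.99e-05). Selenbp1, a selenium-binding methanethiol oxidase, was at 120.3, 118, 139.8 and 137 FPKM and 80.9, 64.7, 71.3 and 64.7 FPKM (log2FC = -0.86, SE = 0.13, adjusted p = 0.000213). Rbm3, an RNA-binding protein induced by cold, was at 415, 504, 575 and 549 FPKM and 320.4, 292, 309 and 304 FPKM (log2FC = -0.72, SE = 0.10, adjusted p = 0.000143). Enzymes of carbon metabolism were among them, Grhpr for glyoxylate and hydroxypyruvate (-0.66), the glycogen branching enzyme Gbe1 (-0.62) and galactokinase Galk1 (-0.47), as were Shcbp1 (-0.59), Cdca3 (-0.57) and Kif20a (-0.66), which peak in dividing cells. Tubgcp2, a part of the γ-tubulin complex, was at -0.62 and the ubiquitin ligase gene Rnf217 at -0.70. Of these 12, Mpp2, Tubgcp2, Shcbp1 and Rnf217 were also lower in α-KG than in anti-PD1 tumors. Mpp2, Tubgcp2, Shcbp1 and Chchd10 were lower than in α-KG + anti-PD1 tumors, and the rest of the 12 did not pass that test. Mean Rbm3, for example, was 307 FPKM in α-KG, 321 in anti-PD1, 326 in α-KG + anti-PD1 and 510 in vehicle tumors. Mean Grhpr was 45.4, 56.2, 44.8 and 72.2 FPKM in the same order.

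Cell cycle genes fell in 13 of 25 and rose in 0 (median log2FC -0.41, 13 without overlap). Top2a, the topoisomerase of dividing cells, was at 58.4, 66.5, 66.2 and 65.4 FPKM in vehicle and 38.9, 40.5, 35.6 and 45 FPKM in α-KG (log2FC = -0.67, SE = 0.10, adjusted p = 0.000306). Bub1, a spindle checkpoint kinase, was at 19.8, 22.5, 21.9 and 21.5 FPKM and 14.6, 13, 10.6 and 14.8 FPKM (log2FC = -0.66, SE = 0.11, adjusted p = 0.000706), and Mcm3, a subunit of the replicative helicase, at 58.5, 60.6, 83 and 81.2 FPKM and 49.3, 54, 38.4 and 47.2 FPKM (log2FC = -0.57, SE = 0.12, adjusted p = 0.00377). The sum of the list was 1236 to 1704 FPKM in vehicle and 986 to 1209 FPKM in α-KG tumors, so the tumors did not overlap but the difference was small beside those of the myeloid genes. The count stayed between 10 and 18 lower and 0 higher in all 18 alternatives. Of the 25 genes, 2 (0 to 3) were lower in α-KG than in anti-PD1 and 4 (1 to 8) lower than in α-KG + anti-PD1, where 0 (0 to 8) were higher.

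Glycolysis and hypoxia genes fell in 13 of 25 and rose in 3 (median log2FC -0.29, 16 without overlap). Vegfa, the vascular growth factor that low oxygen induces, was at 116, 82.5, 88.9 and 83 FPKM in vehicle and 58.9, 46.9, 34.4 and 58.5 FPKM in α-KG (log2FC = -0.90, SE = 0.23, adjusted p = 0.0132). Adm, which encodes the vasodilator adrenomedullin, fell by 0.79 and the mitophagy receptor gene Bnip3 by 0.60 on the log2 scale, without overlap. The 3 that rose were Egln3, Pfkfb3 and Slc2a3. Pfkfb3, which makes the activator of phosphofructokinase, was at 9.01, 8.57, 7.4 and 7.75 FPKM in vehicle and 31, 15.7, 21.6 and 39.4 FPKM in α-KG (log2FC = 1.53, SE = 0.22, adjusted p = 0.000172), and Slc2a3, the high-affinity glucose transporter GLUT3 of neutrophils and neurons, rose by 0.82. Hypoxia target genes moved in both directions. The count of 13 lower was 7 without α-KG tumor 2 or 3, 8 without vehicle tumor 3 or 4, and 8 with equal FPKM sums. Against anti-PD1, 3 were higher and 1 (0 to 3) lower, and against α-KG + anti-PD1 4 (1 to 12) were higher and 6 (1 to 9) lower. Oxidative phosphorylation genes fell in 7 of 26 and rose in 0 (median log2FC -0.15, 6 without overlap), but this count was 1 with equal FPKM sums and 12 with equal sums without hemoglobin genes. It was 3 without α-KG tumor 3, 4 without α-KG tumor 4 and 2 without vehicle tumor 3 or 4. Ribosomal protein genes were 0 and 0 of 28 by limma (median log2FC 0.15, 2 higher at an unadjusted p below 0.05, 1 higher by limma without α-KG tumor 4), while 22 of the 28 (7 to 27) were higher in α-KG than in α-KG + anti-PD1 tumors.

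Melanocyte genes rose in 3 of 16 and fell in 0 (median log2FC -0.07, 4 without overlap). Ednrb, the endothelin receptor of melanoblasts, was low in all groups, at 0.54, 0.27, 0.29 and 0.42 FPKM in vehicle and 3.79, 2.11, 2.12 and 3 FPKM in α-KG (log2FC = 1.42, SE = 0.19, adjusted p = 6.85e-05). Trpm1 was at 145, 164, 137 and 136 FPKM and 236, 198, 202 and 196 FPKM (log2FC = 0.51, SE = 0.11, adjusted p = 0.0052), and Mlana rose by 0.36 but was lost in most alternatives. The pigment enzymes Tyr, Tyrp1 and Dct, the matrix protein Pmel and the factors Mitf and Sox10 did not pass the test. Iron and ferroptosis genes rose in 6 of 14 counted (16 listed) and fell in 1 (median log2FC 0.03, 7 without overlap). Steap4, a metalloreductase that TNF induces, was at 0.1, 0.14, 0.17 and 0.57 FPKM in vehicle and 6.82, 3.03, 9.78 and 11.5 FPKM in α-KG and entered the test only through the α-KG tumors, and Slc11a1, the phagosome metal transporter, rose by 2.61. The ferritin chain genes Fth1 and Ftl1 rose as well, while Tfrc, the transferrin receptor, fell (log2FC = -0.46, adjusted p = 0.00197), joined by another without α-KG tumor 3. Death receptor genes rose in 6 of 12 tested (13 listed, median log2FC 0.60, 6 without overlap). Fas was at 0.27, 0.17, 0.11 and 0.14 FPKM in vehicle and 3.87, 2.48, 4.3 and 7.34 FPKM in α-KG (log2FC = 2.16, SE = 0.21, adjusted p = 2.89e-06), and Tnfrsf1b, the TNF receptor of leukocytes, rose by 3.86. Tissue repair and protease genes rose in 5 of 12 counted (17 listed, median log2FC 0.67, 4 without overlap), with Thbs1, which encodes the matrix protein thrombospondin 1, at 4.11 and Plaur, the urokinase receptor, at 3.84. Against anti-PD1, 1 melanocyte gene was higher and 1 lower, 1 iron gene, 3 death receptor genes and 5 repair genes (3 to 5) were higher, with 0 lower in the last 3 lists. Against α-KG + anti-PD1 the counts were 2 higher (1 to 10) and 0 lower (0 to 2) for melanocyte, 2 (1 to 5) and 2 (1 to 4) for iron, 3 and 4 for death receptor, and 5 and 2 for repair genes.

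Genes of the other cells of the tumor bed stand beside 8.40% higher and 7.53% lower over all genes tested. Platelet genes rose in 2 of 5 counted (9 listed, median log2FC 0.45), Pf4 and Ppbp, which are also chemokine genes. Their sum was 18.6 to 26.3 FPKM in vehicle and 52 to 74 FPKM in α-KG tumors. It was 29.7 to 64.3 FPKM in anti-PD1 and 19.0 to 34.5 FPKM in α-KG + anti-PD1 tumors. On the deposited scale, 0 of the 5 passed the test between α-KG and anti-PD1. Endothelial genes rose in 1 of 8 tested (15 listed, median log2FC 0.08), which was Pecam1, a gene that leukocytes also express. Fibroblast and collagen genes were 1 higher (Fn1) and 1 lower (Col5a1) of 15 counted (22 listed, -0.19). Fn1 was lost without α-KG tumor 1 or 4 or vehicle tumor 3, and Col5a1 without any single tumor other than vehicle tumor 3. Keratinocyte genes were counted in 1 of 12 and adipocyte genes in 2 of 10, of which 0 passed the test by limma and 1 adipocyte gene was higher at an unadjusted p below 0.05, and Krt14 and Adipoq were at 0 or near it. Erythroid genes were 0 higher and 1 lower of 12 tested (14 listed, 13 in the table, median log2FC -0.46), with sums of 63284 to 107632 FPKM in vehicle and 28392 to 99545 FPKM in α-KG tumors that overlapped. Slc4a1, the anion exchanger of red cells, was the one that fell (log2FC = -1.68, adjusted p = 0.0372), a call lost without any single tumor other than vehicle tumor 1 or 2. It was high in vehicle tumors 3 and 4 (6.04, 3.18, 30.8 and 29.5 FPKM) and overlapped with α-KG (1.45, 4.2, 4.48 and 2.85 FPKM). Hemoglobin genes share reads between near-identical copies. Against α-KG + anti-PD1, 9 of the 12 erythroid genes and 3 of the 5 platelet genes were higher in α-KG.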

How the data were processed

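Messenger RNA of 16 tumors was enriched with oligo-dT, converted with dUTP in the second strand and sequenced on the DNBSEQ platform. The authors deposited FPKM per gene for each tumor, and the submitters' processing notes name HISAT, Bowtie2 and mm10, while the program that made FPKM and the depth are not given in the sources used here. Among 688 low values of 164 sparse genes, 37.5% lay within 0.15 of a whole multiple of the smallest step, where evenly spread values would give 30.0%, so read counts were not recovered. Genes reaching 0.5 FPKM in 4 or more tumors were fitted on log2(FPKM + 1) with limma 3.58.1 (trended eBayes, R 4.3.3), 1 mean per group over all 16 tumors, no covariate, Benjamini-Hochberg adjustment over 12850 genes for each of 3 contrasts and a threshold of 0.05. The fit was tested on simulated data. List counts, promoter counts aside, left out members that reached 0.5 FPKM in under 4 tumors once the α-KG or the vehicle tumors were set aside. Promoter searches used Python 3.11.15 and plots matplotlib 3.10.9. Genes were named as the 12 largest rises and 12 largest falls that passed, did not overlap between groups and averaged at least 1 FPKM in the higher group, as the leading members of each list, and as genes the study measured. The members and lists were chosen with earlier results of these data known. Alternatives covered the pseudocount (0.1), the filter (none, or 1 FPKM), 4 scalings, a fit of the 8 tumors alone, an untrended fit, a replicate block and leaving out each tumor. Some members of the lists are counted but not reported by name here, and the study's other assays were not analysed here.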

Additional observations from a re-analysis of the deposited data

Results flagged for a closer look

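For each of the 128 genes given with values, the highest or lowest of the 4 tumors of the vehicle and α-KG groups was set apart on the log2(FPKM + 1) scale when the gap to its nearest neighbor, as a share of the group's whole range, exceeded Dixon's 95% critical value. This held for 29 of 256 combinations of gene and group, where chance flags about 1 in 20 groups.

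Of these, 12 were vehicle tumor 4 as the highest, all in genes of the 12 largest falls. The gap took 0.887 of the range for Acta1, 0.851 for Tnnt3, 0.908 for Mb, 0.874 for Car3, 0.863 for Myl1 and 0.848 for Pvalb. It took 0.848 for Tnnc2, 0.830 for Tpm2, 0.884 for Atp2a1, 0.862 for Tnni2, 0.845 for Tcap and 0.865 for Sln. Vehicle tumors 1, 2 and 3 were lower than it. They also lay above every α-KG tumor, which the choice of these 12 genes required.

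Among α-KG tumors, the second stood apart as the lowest for Lcn2 (0.902) and as the highest for Cd3e (0.864) and Cd8a (0.982). For Pvalb, Tcap and Tet1 it was the only tumor to differ from a common value of the others (gap 1), at levels near 0 for the muscle genes. The first α-KG tumor was highest for Lyz2 (0.844) and Trpm1 (0.837), the third for Cd52 (0.912), and the fourth for Slc2a3 (0.865) and Il15 (0.877).

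Among vehicle tumors, the first stood apart as the lowest for Gbe1 (0.879) and Top2a (0.866) and as the highest for Slc2a3 (0.830) and Il10 (1, the other 3 being at 0). The second was highest for Il1r2 (0.873) and the third lowest for Asph (0.918).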

How the results depend on the processing

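The number of changed genes (2048) stayed within 1.5 times under pseudocount 0.1 (2203), no filter (1915), a filter of 1 FPKM (2016), quantile normalization (2683), median centring (2434), equal FPKM sums without hemoglobin genes (2423), a fit of the 8 tumors alone (1734) and an untrended fit (1940), and fell to 1246 with equal FPKM sums. Leaving out each tumor in turn gave 1256 (without vehicle tumor 3) to 2621 (without vehicle tumor 1), with 1337 without α-KG tumor 3 and 1278 without vehicle tumor 4. Of the 2048, 1244 were kept with equal sums, 1239 without vehicle tumor 3 and 1258 without vehicle tumor 4. The count of rises (1080) stayed within 1.5 times in all alternatives (795 to 1297). The count of falls (968) did not: it was 1644 after quantile normalization, 1455 with equal sums without hemoglobin genes, 403 with equal sums, 636 in the 8 tumors alone and 424 (without α-KG tumor 3) to 1324 (without vehicle tumor 1) when a tumor was left out, being 607 without α-KG tumor 2, 459 without vehicle tumor 3 and 483 without vehicle tumor 4. No scaling moved the median of all genes against vehicle by over 0.1. Fits that leave out a tumor have fewer samples, and the cause of the other shifts was not tested.

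The tumor numbers shared by the groups are not said to mark a litter or batch, and deviations of same-numbered α-KG and vehicle tumors correlated at -0.02, -0.20, 0.18 and 0.05, so they were not treated as pairs. With the number as a replicate block, 1657 genes changed, 984 higher and 673 lower. Added after seeing the data, a filter met outside the α-KG tumors gave 1962 of 12663 genes (1010 higher, 952 lower), the restriction of the lists to counted members moved the neutrophil count from 19 of 19 to 15 of 15 higher and the muscle count from 15 of 18 to 5 of 6 lower, and the fit without the muscle list gave the 2025 given above. The counts against anti-PD1 (406) and against α-KG + anti-PD1 (4918) stayed within 1.5 times under pseudocount 0.1 and the 4 scalings, the alternatives run for them, but their split did not, as given above. Neutrophil markers were 15 of 15 higher and interferon-γ targets 23 of 25 lower than in α-KG + anti-PD1 under all of these, T cell genes 13 to 15 of 15 lower and cytotoxic genes 11 or 12 of 12 lower.

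Of the 128 genes given with values, 118 passed the test and 102 of these passed it in the same direction in all 18 alternatives (those added later aside). The other 16 lost it in at least 1 and none changed direction: Cd86, Nectin2, Jak2, Stat5a, Tet1, Kdm4b, Egln2, Plod2, Jmjd6, Asph, Alkbh3, Got2, Vegfa, Mlana, Slc4a1 and Oasl2. Of the 10 that did not pass, Irf8 passed in 1 alternative, and 2 changed sign. Ifng was at -0.051 after quantile normalization and -0.11 to 0.21 when a tumor was left out. Tet2 was at -0.16 after quantile normalization, -0.035 after median centring, -0.0063 with equal sums and -0.040 with equal sums without hemoglobin genes, and at -0.14 to 0.27 when a tumor was left out. Of 17 genes followed in both direct comparisons, the 1 change of sign was Cd274 against α-KG + anti-PD1, at -0.12 with equal sums. Read depth is not known, so the precision of genes near 0.5 FPKM, such as Cd80, Cd86, Fas, Ednrb or Ly6g in vehicle, cannot be given beyond the spread of 4 tumors.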
